A study of Homo sapiens with 28 samples.

Results

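The genes that build, hold and cut the extracellular matrix were followed in Kelly cells, an established human neuroblastoma line, after transfection with synthetic microRNAs. The members are the fibrillar, network and other collagens, the laminin chains, the integrin subunits, the matrix metalloproteinases (MMPs), the ADAMTS proteases and the tissue inhibitors of metalloproteinases (TIMPs), together with FN1 (fibronectin), TNR, FREM1 and CD44. They were chosen by symbol, with a mean of at least 10 counts over all libraries. Of 30887 rows in the deposited table, 113 symbols matched and 74 passed the minimum, and all 74 were among the 15058 genes tested. These 74 are 24 of 40 matching collagens, 8 of 12 laminins, 14 of 21 integrins, 6 of 13 MMPs, 15 of 19 ADAMTS genes, 3 of 4 TIMPs and the 4 single genes. LAMB3 (mean count 12.1) and COL27A1 (12.4) lay just inside the minimum, and COL8A2 (9.71) and MMP28 (8.07) just outside. Of the 39 symbols left out, 3 had no count in any library.

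Messenger RNA was sequenced 48 h after reverse transfection with a 25 nM mimic, a synthetic double-stranded copy of a mature microRNA. The 28 libraries form 7 groups of 4, which received a scrambled control or a mimic of miR-100-3p, miR-99b-5p, miR-1283, miR-1915-3p, miR-380-3p or miR-485-3p. All groups are the same line, grown in RPMI medium with fetal bovine serum, and all received the same transfection reagent; no untransfected cells were analysed here. Whether the 4 libraries of a group are separate cultures is not stated in the labels. The p-values therefore measure the spread between these libraries, which may be technical.

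Library totals ran from 10992874 to 23296088 expected counts, with a median of 14999645. All 9 markers of the line's adrenergic identity were expressed, among them the amplified oncogene MYCN at 5053 CPM (counts scaled to a common library total) and DBH, an enzyme of noradrenaline synthesis, at 1663 CPM in the control. Of the defining markers of other cell types, DCN (fibroblasts), PECAM1 and TEK (endothelium) and S100B and SOX10 (Schwann cells) had no count in any control library, while PDGFRB, also on the fibroblast list, stood at 73.3 CPM and VWF, on the endothelial list, at 2.6 CPM. In cultured cells as in any bulk sample, fewer cells that express a gene and less RNA per cell cannot be told apart.

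The matrix is a network of secreted proteins. Type IV collagen and laminin form the basement membrane sheet, fibrillar collagens form the fibres of connective tissue, and fibronectin links both to cells. Integrins are receptors made of an alpha and a beta chain that bind these proteins, and CD44 binds hyaluronan. MMPs and ADAMTS enzymes cut or trim matrix proteins and TIMPs block them. A microRNA lowers its target mRNAs by pairing of its seed, bases 2 to 8, with complementary heptamers that mostly lie in the 3′ untranslated region (UTR).

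The sequences of the 6 mature microRNAs show which seed each mimic carried. They are from RefSeq (GRCh38.p14), written 5′ to 3′ with the seed in capitals. No pair of mimics shares a seed.
miR-99b-5p: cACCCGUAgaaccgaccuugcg
miR-380-3p: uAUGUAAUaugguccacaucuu
miR-485-3p: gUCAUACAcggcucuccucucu
miR-100-3p: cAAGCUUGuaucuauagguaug
miR-1915-3p: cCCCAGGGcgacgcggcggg
miR-1283: uCUACAAAggaaagcgcuuucu

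The target sites below are seed matches in integrin and protease genes that fell, shown as examples. Each is a stretch of a 3′ UTR in GENCODE v29 on GRCh38, with the heptamer that pairs with the seed in capitals, and each lies in a gene that fell under the mimic named. ITGB1 has its site on the minus strand at chr10:32901291-32901297, ITGA11 at chr15:68298663-68298669 on the minus strand for miR-100-3p and at chr15:68300104-68300110 for miR-380-3p, and ADAMTS17 on the minus strand at chr15:99971601-99971607.
ITGB1, miR-100-3p: tattgaaatCAAGCTTattggat
ITGA11, miR-100-3p: aatggagaaCAAGCTTatcaagg
ITGA11, miR-380-3p: ggatttaatATTACATaatagct
ADAMTS17, miR-380-3p: ttaacttgcATTACATactgtac

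In control cells the highest levels per kb, by the gene lengths in the authors' table, belonged to a protease, integrin beta chains and laminins. Levels between genes are compared here as CPM per kb, with the length that the authors' table gives. Whether these are the lengths of the full mRNAs was not tested, and a length that is too short raises the level per kb. The table gives 1461 bases for LAMB2 and 2714 for LAMA5, for example. By CPM alone, ITGB1 (229) and LAMC1 (181) stood above MMP2 (141). MMP2, the gelatinase that cuts type IV collagen, led with 70.5 ± 3.17 CPM per kb (mean ± SD, n = 4), followed by the integrin chains ITGB1 (64.5 ± 3.15) and ITGB5 (56.6 ± 7.48). Next came the laminin chains LAMB1 (49.3 ± 1.32), LAMA5 (41.5 ± 7.05), LAMB2 (36.7 ± 1.55) and LAMC1 (32.9 ± 1.74), with the inhibitor TIMP2 (41.0 ± 4.05) and COL6A1 (35.0 ± 5.66) among them. Neighbours in this order overlapped in their library ranges down to LAMC1, whose lowest library (30.7 CPM per kb) lay above the highest of LAMA1 (22.7). Below that point the ranges of all further neighbours overlapped.

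Fibrillar collagen was scarce by the same measure. COL1A1, a chain of type I collagen, stood at 2.81 ± 0.58 CPM per kb, COL5A1 at 1.70 ± 0.0594 and COL11A1 at 1.64 ± 0.378. COL2A1, the collagen of cartilage, was higher at 7.41 ± 0.285. Of the type IV chains, COL4A2 (18.9 ± 1.27) was above COL4A1 (6.50 ± 0.376), although the chains are known to assemble with each other. The median member stood at 3.25 CPM per kb against 8.81 for all genes tested, 22 members were at 10 or more and 15 under 1.

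**Figure D1:**
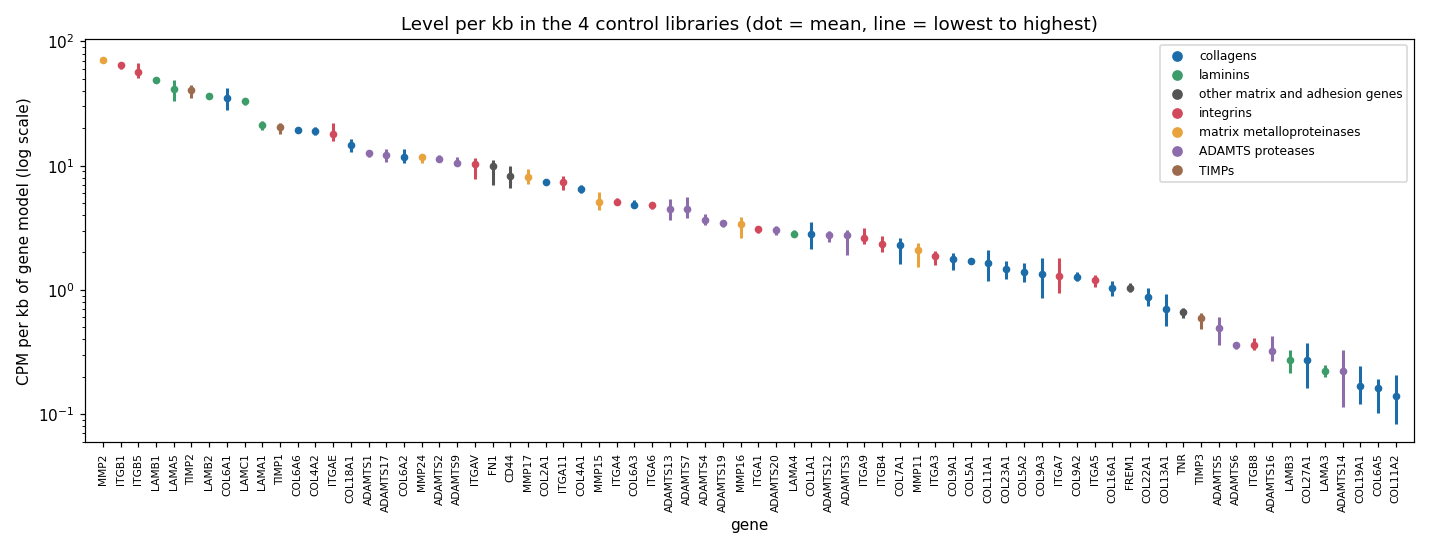
Level of each of the 74 genes in control cells, as CPM per kb of gene length on a log axis, ordered from highest to lowest and coloured by family. Dots are the means and lines the ranges of 4 libraries; MMP2, ITGB1 and ITGB5 are highest and COL11A2 (0.14 CPM per kb) lowest.

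Each mimic was then compared with the scrambled control over all genes with the quasi-likelihood test of edgeR, and a gene was called at a Benjamini-Hochberg adjusted p under 0.05. Matrix and adhesion genes were called more often than genes in general under 4 of the mimics. Of the 74, 47 (63.5%) were called under at least 1 mimic, against a background of 39.0% of all genes tested, and 27 were called under none. Under miR-99b-5p 26 members were called (35.1%, background 16.6%), under miR-380-3p 19 (25.7%, background 10.9%), under miR-485-3p 25 (33.8%, background 21.1%) and under miR-100-3p 13 (17.6%, background 5.96%). The share called depends on a gene's count, and the members' median mean count was 229 against 337 for all genes tested. Members were chosen with earlier results of these data known, and no test of the group against other genes was made, so these shares only describe the set. Of the 4 single genes, 3 were called under miR-99b-5p, 2 under miR-380-3p, 1 under miR-485-3p and 3 under miR-100-3p. Under miR-99b-5p the count was 17 without control replicate 4 and 17 without miR-99b-5p replicate 3. With the dependence of each library's counts on GC content as a covariate it was 38 under miR-485-3p (12 rose, 26 fell).

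The direction was mixed. Under miR-99b-5p 15 members rose (background 8.11%) and 11 fell (background 8.48%), and under miR-380-3p 9 rose (background 5.6%) and 10 fell (background 5.25%). Under miR-485-3p 9 rose (background 10.5%) and 16 fell (background 10.6%), and under miR-100-3p 6 rose (background 2.9%) and 7 fell (background 3.05%). The members' median log2 change was -0.039 under miR-99b-5p (all genes -0.003), 0.012 under miR-380-3p (-0.003), -0.202 under miR-485-3p (0.025) and -0.057 under miR-100-3p (-0.009). With library totals in place of TMM scaling, 10 rose and 11 fell under miR-99b-5p. All comparisons share the 4 control libraries.

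The remaining mimics called no member. With edgeR, 0 members were called under miR-1915-3p (background 0.246%) and 0 under miR-1283 (background 0.0199%), and DESeq2 also called 0 under each. At an unadjusted p under 0.05, 6 members passed under miR-1915-3p (8.11%, against 6.35% of all genes) and 10 under miR-1283 (13.5%, against 3.01%). Fitted log2 changes ran from -0.71 to 0.70 under miR-1915-3p and from -0.64 to 0.45 under miR-1283. Replicates 1 and 4 of miR-1915-3p bear a title suffix whose meaning is not stated, and without both of them the count was again 0.

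**Figure D2:**
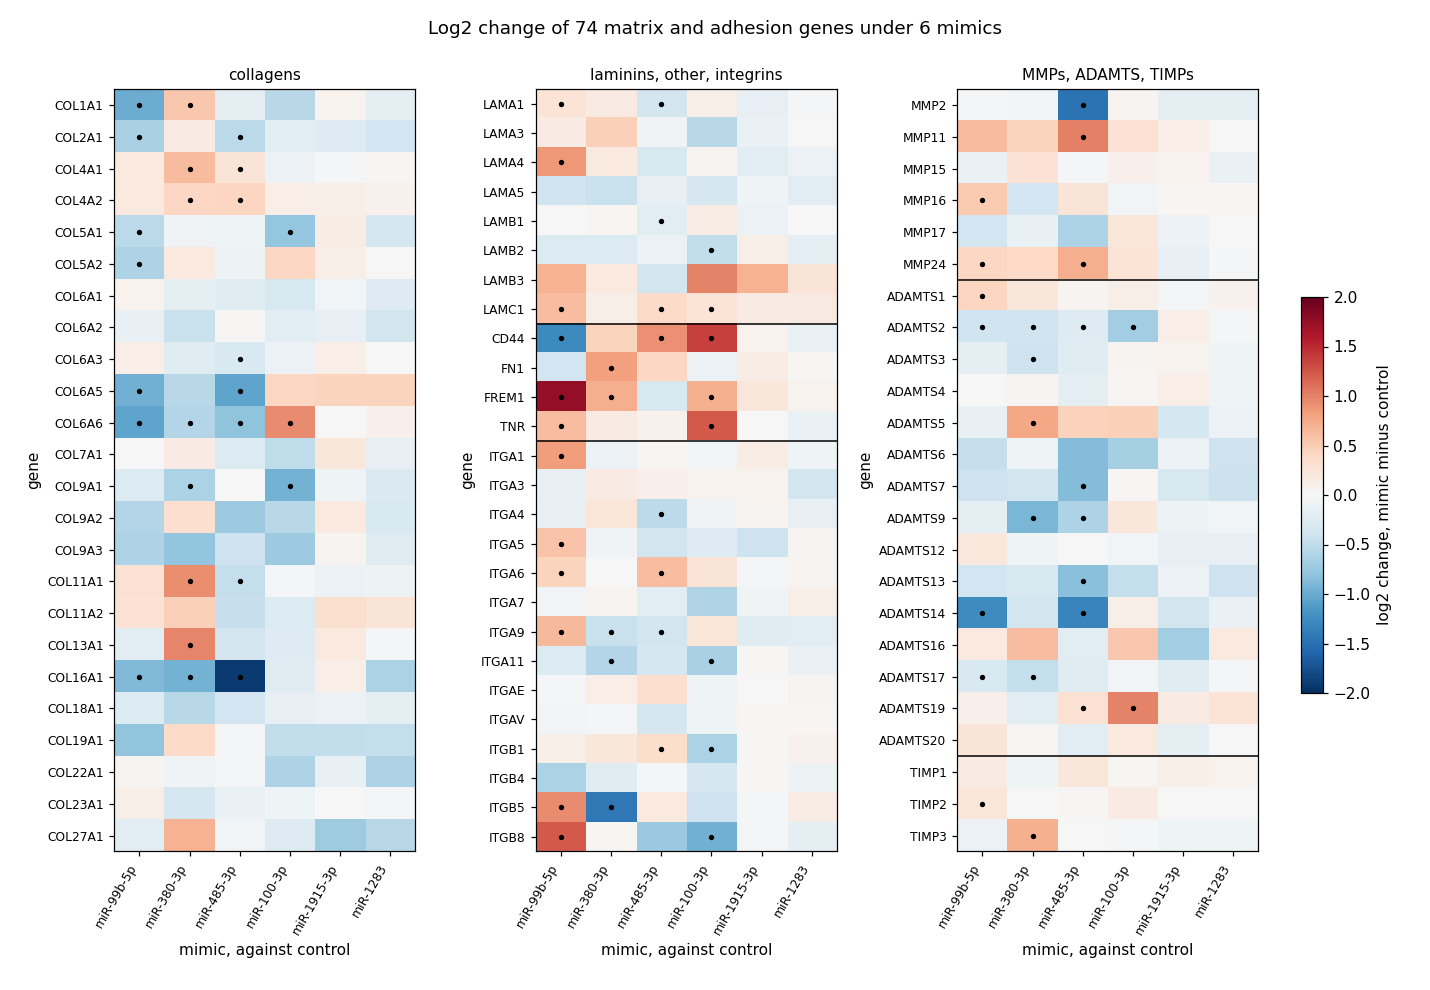
Log2 change of the 74 genes under each mimic against control (colour, from -2 to 2), in 3 panels by family; black dots mark adjusted p under 0.05. The 2 right-hand columns of each panel, miR-1915-3p and miR-1283, hold no dot, and COL6A6 and ADAMTS2 hold a dot in 4 columns each.

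The type IV collagen chains COL4A1 and COL4A2 rose under miR-380-3p. COL4A1 (ENSG00000187498) stood at 43.1, 45.3, 42.1 and 39.3 CPM in control replicates 1, 2, 4 and 5 and at 68.3, 58.1, 75.1 and 63.2 CPM in miR-380-3p replicates 1 to 4, a log2 change of 0.64 ± 0.07 (SE, adjusted p = 9.62e-07). All 4 mimic libraries were above all 4 controls. COL4A2 (ENSG00000134871), its partner chain, stood at 109, 125, 117 and 108 CPM in control and at 159, 163, 161 and 132 CPM under miR-380-3p (0.42 ± 0.09, adjusted p = 0.00168), again with no overlap. Under miR-485-3p COL4A2 rose alike, to 160, 169, 154 and 138 CPM (0.43 ± 0.09, adjusted p = 0.000654). The change of COL4A1 under miR-485-3p was smaller (0.25 ± 0.07, adjusted p = 0.0148). Leaving out control replicate 5 (adjusted p = 0.0585) or miR-485-3p replicate 3 (0.106) ended this call. Compared directly, COL4A1 was higher under miR-380-3p than under miR-485-3p (log2 difference 0.39 ± 0.07, adjusted p = 0.000196), while the difference of COL4A2 was -0.01 ± 0.09 (adjusted p = 0.94).

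The pair is transcribed head to head from 1 stretch of chromosome 13. Their RefSeq starts lie 127 bases apart on opposite strands, and the windows from 250 bases before to 50 after each start share 226 bases. The window of COL4A2, plus strand of GRCh38.p14 at chr13:110307034-110307333, is printed because both chains rose together under miR-380-3p; capitals mark a GGGCGG and a CCAAT motif.
COL4A2 promoter: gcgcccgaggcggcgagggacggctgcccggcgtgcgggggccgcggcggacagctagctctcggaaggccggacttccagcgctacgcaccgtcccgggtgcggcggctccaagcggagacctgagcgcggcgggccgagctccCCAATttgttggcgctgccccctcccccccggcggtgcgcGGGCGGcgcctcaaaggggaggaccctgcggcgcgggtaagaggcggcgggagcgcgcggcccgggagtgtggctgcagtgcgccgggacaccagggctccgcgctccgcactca
Searched on both strands, GGGCGG occurs in 44.6% of all 27305 RefSeq promoters of this length and CCAAT in 35.7%; TATAAA, found in 12.0%, has no match in this window. Of the 52 members with a RefSeq promoter, 75.0% hold GGGCGG, 21.2% CCAAT and 9.62% TATAAA. These are matches of letters and not measured binding. In GENCODE v29 the spans of COL4A1 and COL4A2 overlap at their 5′ ends, and the sources do not say whether counting used strand, so some reads there could be assigned to either chain.

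The laminin chains that were called did not all move alike. Of the 8 chains, 3 rose (background 8.11%) and 0 fell (8.48%) under miR-99b-5p. Under miR-485-3p 1 rose (background 10.5%) and 2 fell (10.6%), and under miR-100-3p 1 rose (2.9%) and 1 fell (3.05%). LAMC1, the gamma chain of most laminins, rose from a mean of 181 CPM in control to 279 CPM under miR-99b-5p (0.62 ± 0.08, adjusted p = 2.46e-06) and to 237 CPM under miR-485-3p (0.39 ± 0.08, adjusted p = 0.000748). LAMA4, an alpha chain of vessel and nerve basement membranes, rose under miR-99b-5p from 12.7 to 23.1 CPM (0.87 ± 0.11, adjusted p = 2.08e-06). LAMA1, the embryonic alpha chain, fell under miR-485-3p from 148 to 116 CPM (-0.36 ± 0.10, adjusted p = 0.00833), although its groups overlapped. It was also called higher under miR-99b-5p (0.27 ± 0.09, adjusted p = 0.0494), a call kept in 2 of 8 fits that left out 1 library. LAMB2 fell under miR-100-3p from 53.6 to 37.8 CPM (-0.50 ± 0.10, adjusted p = 0.00217). LAMB1 was called lower under miR-485-3p (148 to 128 CPM) and LAMC1 higher under miR-100-3p (181 to 220 CPM). Both of these calls were lost on leaving out some single libraries. LAMA5 was called under no mimic, with log2 changes from -0.45 under miR-380-3p to -0.09 under miR-1915-3p. A fit of only the 8 libraries compared called LAMA5 lower under miR-380-3p (adjusted p = 0.0267). Under miR-380-3p none of the 8 laminins was called (background 10.9%), but with the GC slope of each library as covariate LAMB2 was (-0.25, adjusted p = 0.031). LAMA4 was higher under miR-99b-5p than under miR-485-3p by 1.18 ± 0.11 on the log2 scale (adjusted p = 4.23e-09).

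Fibronectin rose under miR-380-3p. FN1 stood at 55.7, 59.6, 59.7 and 37.6 CPM in control and at 92.4, 77.6, 105 and 99.3 CPM under miR-380-3p (0.82 ± 0.16, adjusted p = 0.000794). Control replicate 5 was the lowest of its group, and no library overlapped. Under miR-485-3p FN1 stood at 82.7, 71.5, 86.1 and 43.4 CPM, with replicate 5 among the controls, and did not pass the test (0.42 ± 0.16, adjusted p = 0.057; 0.0272 with the GC slope of each library as covariate). Under miR-99b-5p it stood at 47.3, 43.2, 37.8 and 33.7 CPM (-0.39 ± 0.16, adjusted p = 0.0943; 0.0493 with that covariate), and FN1 was lower there than under miR-380-3p by a log2 difference of -1.21 ± 0.16 (adjusted p = 1.69e-06).

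FREM1, a basement membrane protein of the skin and developing organs, had the largest rise of any member under miR-99b-5p. It stood at 4.85, 5.70, 5.12 and 5.00 CPM in control and at 14.3, 20.1, 17.4 and 18.2 CPM under miR-99b-5p (1.76 ± 0.18, adjusted p = 8.2e-08). The lowest mimic library was thus well above the highest control. FREM1 was also called higher under miR-380-3p (0.72 ± 0.19, adjusted p = 0.0118) and miR-100-3p (0.71 ± 0.19, adjusted p = 0.0224). The first of these was lost without miR-380-3p replicate 3 (adjusted p = 0.0511) or 4 (0.0629). The second was lost without control replicate 1 (0.0656), 4 (0.0551) or 5 (0.0622) or without miR-100-3p replicate 2 (0.0545) or 3 (0.106). FREM1 was higher under miR-99b-5p than under miR-380-3p (1.04 ± 0.17, adjusted p = 5.59e-05) and than under miR-100-3p (1.05 ± 0.17, adjusted p = 5.36e-05).

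Tenascin-R (TNR), a glycoprotein of the nervous system matrix, rose under miR-100-3p. Its control libraries stood at 8.54, 8.75, 7.69 and 9.34 CPM and those of miR-100-3p at 17.8, 20.3, 25.0 and 17.1 CPM (1.22 ± 0.18, adjusted p = 6.41e-05), without overlap. Under miR-99b-5p TNR stood at 12.6, 13.3, 10.7 and 15.8 CPM (0.61 ± 0.18, adjusted p = 0.0168), a call that ended on leaving out control replicate 4 (adjusted p = 0.0562) or replicate 7 of the mimic (0.0612). TNR was higher under miR-100-3p than under miR-99b-5p (log2 difference of miR-99b-5p minus miR-100-3p -0.60 ± 0.17, adjusted p = 0.00942).

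**Figure D3:**
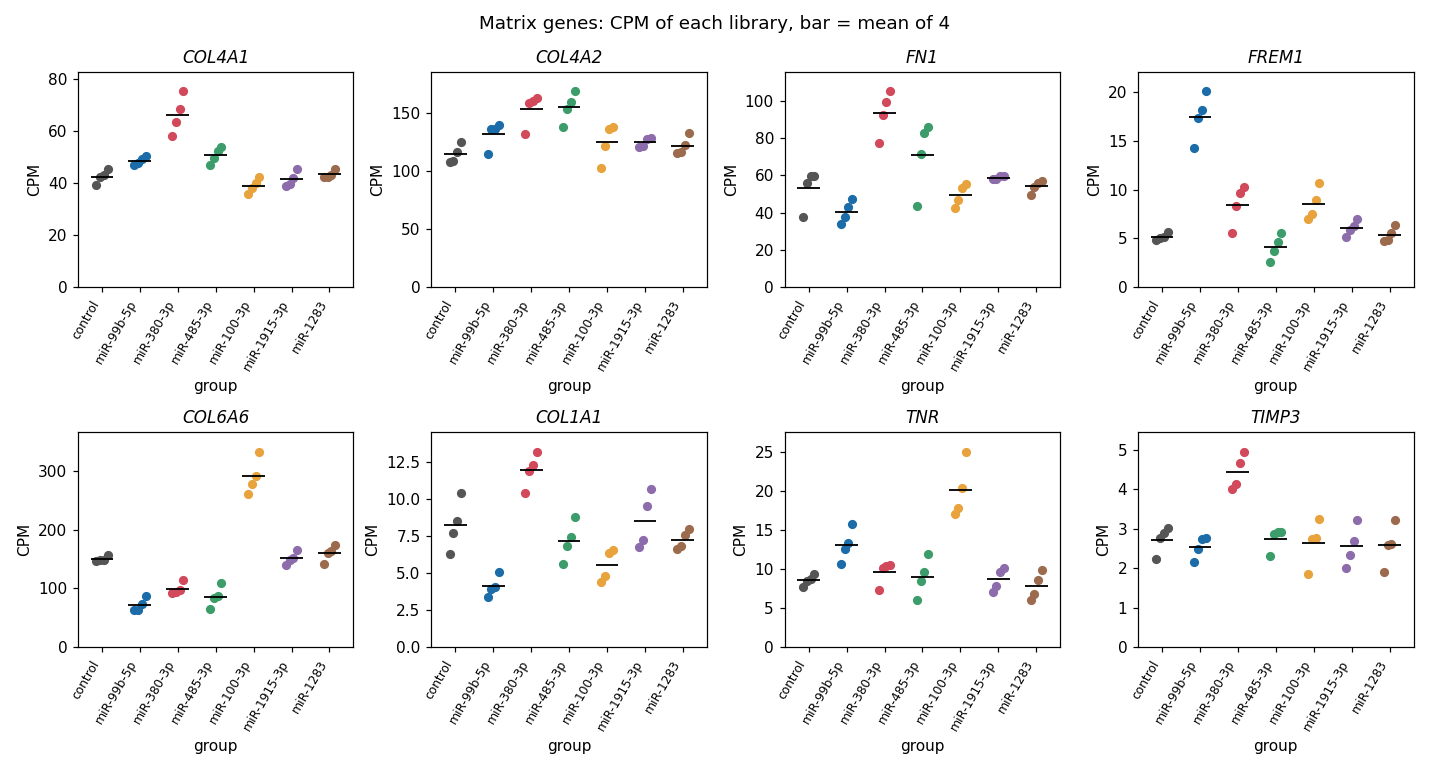
CPM of 8 matrix genes in each library (points, 4 per group) with the group mean (bar), on linear axes from 0. FN1, COL4A1, COL1A1 and TIMP3 are highest under miR-380-3p, FREM1 under miR-99b-5p, and COL6A6 and TNR under miR-100-3p.

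Among the 24 collagens, 7 fell (background 8.48%) and 0 rose (8.11%) under miR-99b-5p, and 3 fell (5.25%) and 5 rose (5.6%) under miR-380-3p. Under miR-485-3p 6 fell (background 10.6%) and 2 rose (10.5%), and under miR-100-3p 2 fell (3.05%) and 1 rose (2.9%). The collagens have a higher GC content (median 59.3%) than all genes tested (49.8%), and libraries differed in how their counts depended on GC. For each library, the deviation of each gene's log2 CPM from its mean over all libraries was fitted on GC. The slope, which is thus relative to the average library, ran from -1.98 in miR-99b-5p replicate 2 to 2.90 in miR-485-3p replicate 2. With this slope as a covariate, 82 of the 83 calls of members under a mimic remained and 34 were added. Those added under miR-99b-5p include rises of COL4A2 (0.28, adjusted p = 0.00154) and COL6A1, so that the collagens called there were then not all lower. COL18A1 stood at a mean of 56.9 CPM in control and 38.5 CPM under miR-380-3p, without overlap. It was not called there (-0.56 ± 0.23, adjusted p = 0.124), but with the covariate it was called lower (-0.41, adjusted p = 0.0019). The covariate also called it lower under miR-485-3p (-0.46, adjusted p = 0.000274).

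COL6A6, an alpha chain of the beaded type VI collagen, was called under 4 mimics. It stood at 148, 156, 147 and 148 CPM in control, at 87.1, 63.2, 62.7 and 73.8 CPM under miR-99b-5p (-1.06 ± 0.12, adjusted p = 2.01e-07) and at 115, 91.9, 97.6 and 94.6 CPM under miR-380-3p (-0.59 ± 0.12, adjusted p = 0.00107). Under miR-485-3p it stood at 86.8, 65.5, 83.8 and 109 CPM (-0.80 ± 0.12, adjusted p = 1.29e-05). Under miR-100-3p it rose to 261, 290, 332 and 277 CPM (0.95 ± 0.12, adjusted p = 6.82e-06). In each case all mimic libraries lay on 1 side of the controls. The direct comparison of miR-99b-5p with miR-100-3p gave a log2 difference of -2.02 ± 0.12 (adjusted p = 2.18e-12).

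COL6A5, whose gene ends 75490 bases before COL6A6 starts on chromosome 3, was far less abundant in control cells (0.161 ± 0.0396 CPM per kb against 19.3 ± 0.563 for COL6A6). It also fell under miR-99b-5p (-0.96 ± 0.22, adjusted p = 0.00285) and miR-485-3p (-1.06 ± 0.23, adjusted p = 0.00126), and it was not called under miR-100-3p (0.41 ± 0.20, adjusted p = 0.263). The 3 chains of the common type VI trimer had 1 call between them. COL6A3 was called lower under miR-485-3p (-0.31 ± 0.11, adjusted p = 0.0454), with overlapping groups, and the call ended on leaving out any control library or replicate 1, 2 or 3 of the mimic (adjusted p from 0.0547 to 0.162). COL6A1 and COL6A2 were called under no mimic, with log2 changes from -0.32 to 0.07 and from -0.45 to 0.02. With the GC slope as covariate COL6A1 was called higher under miR-99b-5p (0.29, adjusted p = 0.0357) and lower under miR-485-3p (-0.28, 0.0298), and COL6A2 lower under miR-380-3p (-0.32, 0.0422).

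Fibrillar chains were among the collagens that fell under miR-99b-5p. COL1A1 stood at 7.75, 8.52, 10.4 and 6.31 CPM in control and at 3.39, 3.96, 4.06 and 5.10 CPM under miR-99b-5p (-0.99 ± 0.18, adjusted p = 0.000203), with no overlap. COL2A1 fell from 34.7 to 22.1 CPM (-0.65 ± 0.11, adjusted p = 0.000194) and COL5A2 from 6.68 to 4.35 CPM (-0.62 ± 0.15, adjusted p = 0.00533), the latter with overlapping groups. COL2A1 fell under miR-485-3p as well (-0.54 ± 0.11, adjusted p = 0.00108). Under miR-380-3p COL1A1 was called higher, at 13.2, 10.4, 12.3 and 11.9 CPM (0.54 ± 0.16, adjusted p = 0.0332). Leaving out control replicate 1, 2 or 5, or replicate 1, 3 or 4 of the mimic, ended that call, with adjusted p from 0.0602 to 0.136. The direct difference of COL1A1 between miR-99b-5p and miR-380-3p was -1.53 ± 0.17 (adjusted p = 1.59e-07).

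COL11A1, a minor fibrillar chain, rose under miR-380-3p from 7.53, 9.66, 7.76 and 5.39 CPM to 13.6, 12.8, 15.9 and 15.4 CPM (0.93 ± 0.15, adjusted p = 0.000126). COL5A1 fell under miR-100-3p from 8.98, 8.52, 8.67 and 9.21 CPM to 5.35, 5.30, 4.67 and 5.37 CPM (-0.77 ± 0.16, adjusted p = 0.00357). COL9A1, a collagen of fibril surfaces, fell there from 4.71, 4.87, 4.37 and 3.55 CPM to 2.94, 1.85, 1.76 and 2.43 CPM (-0.94 ± 0.18, adjusted p = 0.00123). In these 3 cases the groups did not overlap. COL13A1, a transmembrane collagen of low level, was called higher under miR-380-3p, at 1.86, 1.75, 2.93 and 2.80 CPM against 0.869, 1.06, 1.58 and 1.25 CPM in control (0.98 ± 0.26, adjusted p = 0.0124). Its groups did not overlap either, but the call ended on leaving out control replicate 1 (0.053), miR-380-3p replicate 3 (0.0623) or miR-380-3p replicate 4 (0.053).

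COL16A1, a fibril-associated collagen, had the largest fall of any member under miR-485-3p. It stood at 2.17, 2.59, 2.86 and 2.50 CPM in control and at 0.781, 0.821, 0.349 and 0.768 CPM under miR-485-3p (-1.92 ± 0.27, adjusted p = 9.88e-06). Replicate 3 was the lowest of these libraries, and every one was under the lowest control. It was also called lower under miR-99b-5p at 0.950, 0.949, 1.27 and 2.27 CPM (-0.89 ± 0.24, adjusted p = 0.0112), though not without miR-99b-5p replicate 3 (0.0572), and under miR-380-3p at 1.69, 1.24, 1.06 and 1.28 CPM (-0.95 ± 0.25, adjusted p = 0.0117), though not without miR-380-3p replicate 3 (0.0554). The fall was larger under miR-485-3p than under miR-380-3p (log2 difference of miR-380-3p minus miR-485-3p 0.97 ± 0.29, adjusted p = 0.0139).

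Without a covariate, the integrins that were called rose under miR-99b-5p and fell under miR-100-3p and miR-380-3p. Of the 14 subunits, 6 rose (background 8.11%) and 0 fell (8.48%) under miR-99b-5p, and 2 rose (10.5%) and 2 fell (10.6%) under miR-485-3p. Under miR-380-3p 0 rose (background 5.6%) and 3 fell (5.25%), and under miR-100-3p 0 rose (2.9%) and 3 fell (3.05%). ITGB5, which pairs with the alpha V chain to bind vitronectin, stood at 95.4, 98.5, 91.9 and 122 CPM in control and at 170, 207, 210 and 195 CPM under miR-99b-5p (0.94 ± 0.13, adjusted p = 6.4e-06). Under miR-380-3p it fell to 45.2, 48.6, 28.9 and 28.8 CPM (-1.43 ± 0.13, adjusted p = 3.41e-08). Neither mimic group overlapped the controls, and the direct difference between them was 2.37 ± 0.14 on the log2 scale (adjusted p = 1.21e-12). ITGAV, its alpha partner, was called under no mimic, with log2 changes from -0.33 to 0.04, but with the GC slope as covariate it was called lower under miR-485-3p (-0.35, adjusted p = 0.00726). That covariate also gave calls against the directions above, ITGA11 lower under miR-99b-5p (-0.37, adjusted p = 0.0346) and ITGB1 higher under miR-380-3p (0.15, 0.0253). It added ITGB5 as lower under miR-100-3p (-0.37, 0.0332). The calls of ITGA5 and ITGA6 under miR-99b-5p were lost on leaving out most single libraries (kept in 1 and 3 of 8).

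ITGB1, the beta chain shared by most matrix-binding integrins, fell under miR-100-3p. It stood at 240, 229, 214 and 234 CPM in control and at 131, 155, 176 and 125 CPM under miR-100-3p (-0.64 ± 0.10, adjusted p = 0.000183), with no overlap. The highest mimic library, replicate 3, was still below every control. Under miR-485-3p it stood at 290, 235, 326 and 319 CPM (0.35 ± 0.10, adjusted p = 0.0132), and this call was lost without miR-485-3p replicate 3 (adjusted p = 0.102) or 5 (0.0654). The direct difference of ITGB1 between miR-485-3p and miR-100-3p was 1.00 ± 0.10 (adjusted p = 2.86e-08).

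ITGB8, a beta chain that binds latent TGF-beta, rose under miR-99b-5p from 3.55, 2.89, 3.09 and 2.83 CPM to 6.18, 8.44, 7.93 and 6.21 CPM (1.22 ± 0.24, adjusted p = 0.000672), with no overlap. The collagen-binding ITGA1 rose there from 19.6 to 35.1 CPM (0.84 ± 0.13, adjusted p = 3.58e-05), and ITGA9, which binds tenascin, from 20.5 to 32.2 CPM (0.65 ± 0.12, adjusted p = 0.000238). ITGA11, another collagen receptor chain, fell from 45.3 CPM to 30.3 CPM under miR-380-3p (-0.58 ± 0.14, adjusted p = 0.00622) and to 29.0 CPM under miR-100-3p (-0.65 ± 0.14, adjusted p = 0.00455). Under miR-485-3p ITGA6, a laminin receptor chain, rose from 19.4 to 29.6 CPM (0.61 ± 0.14, adjusted p = 0.00235). ITGA4, a fibronectin receptor chain, fell there from 16.2 to 11.2 CPM (-0.53 ± 0.14, adjusted p = 0.0062).

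CD44, the hyaluronan receptor, fell under 1 mimic and rose under 2 others. It stood at 14.8, 17.3, 19.7 and 13.0 CPM in control and at 7.13, 6.01, 7.26 and 6.57 CPM under miR-99b-5p (-1.27 ± 0.16, adjusted p = 2.49e-06). It rose to 30.3, 28.5, 40.8 and 22.3 CPM under miR-485-3p (0.92 ± 0.15, adjusted p = 5.96e-05) and to 35.0, 35.4, 51.9 and 44.6 CPM under miR-100-3p (1.36 ± 0.15, adjusted p = 1.46e-06). No library of these groups overlapped the controls. Under miR-380-3p CD44 stood at 22.0, 20.3, 22.6 and 23.6 CPM and did not pass the test (0.45 ± 0.15, adjusted p = 0.053; 0.0394 with the GC slope as covariate), although each library was above each control. The direct difference between miR-99b-5p and miR-100-3p was -2.63 ± 0.16 (adjusted p = 2.8e-12), and that between miR-485-3p and miR-100-3p -0.45 ± 0.14 (adjusted p = 0.0206).

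**Figure D4:**
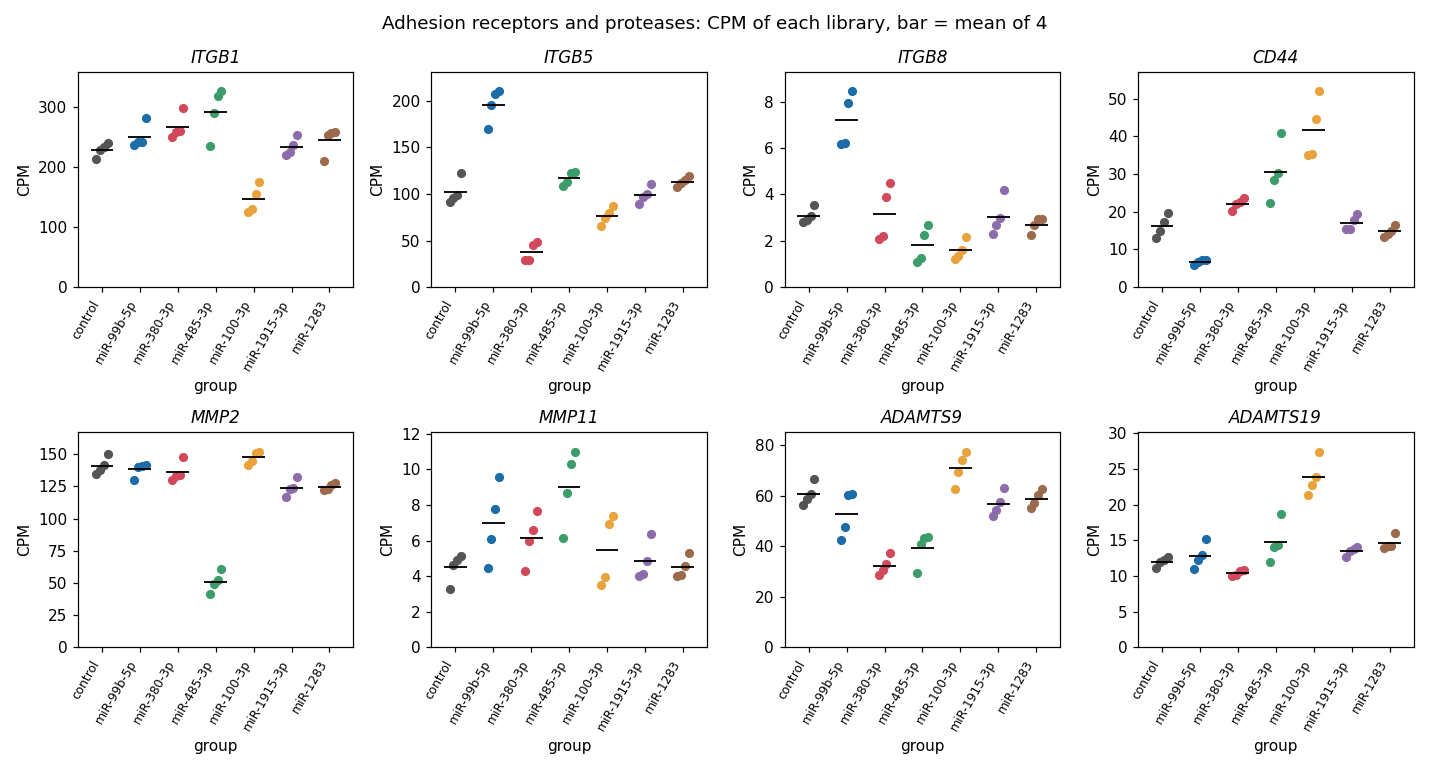
CPM of 4 receptors and 4 proteases in each library (points, 4 per group) with the group mean (bar), on linear axes from 0. ITGB5 is highest under miR-99b-5p and lowest under miR-380-3p, ITGB1 is lowest and CD44 highest under miR-100-3p, and MMP2 is lowest under miR-485-3p.

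MMP2, the member with the highest level per kb by the authors' lengths, fell under miR-485-3p. It stood at 138, 142, 150 and 135 CPM in control and at 52.3, 61.2, 41.5 and 48.9 CPM under miR-485-3p (-1.47 ± 0.08, adjusted p = 2.97e-13), a 2.78-fold fall and the smallest adjusted p of any member. The highest of these libraries lay far under the lowest control. Under the other 5 mimics the log2 change of MMP2 ran from -0.19 to 0.06 and no call was made. Its difference between miR-485-3p and miR-100-3p was -1.53 ± 0.08 (adjusted p = 8.44e-14), and that between miR-380-3p and miR-485-3p was 1.42 ± 0.08 (adjusted p = 2.71e-13).

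Of the other metalloproteinases, 2 rose under the same mimic. MMP11 (stromelysin 3) rose under miR-485-3p from 4.63, 4.94, 5.12 and 3.29 CPM to 8.66, 11.0, 10.3 and 6.14 CPM (1.01 ± 0.25, adjusted p = 0.00398). MMP24, a membrane-bound metalloproteinase of neurons, rose from 46.8, 53.7, 53.8 and 53.9 CPM to 92.3, 96.2, 87.5 and 67.7 CPM (0.72 ± 0.13, adjusted p = 0.000242). Neither overlapped the controls, and replicate 5 was the lowest mimic library for both. MMP24 has an antisense gene, with which reads may be shared if counting did not use strand. Of the 6 MMPs, 2 rose (background 10.5%) and 1 fell (10.6%) under miR-485-3p, and 2 rose (8.11%) under miR-99b-5p (MMP16 and MMP24). None was called under miR-380-3p (background 10.9% in either direction) or miR-100-3p (5.96%). With the GC slope as covariate MMP15 (0.41, adjusted p = 0.000372), MMP24 (0.46, 0.00177) and MMP11 (0.55, 0.0441) were called higher and MMP16 (-0.49, 0.00268) lower under miR-380-3p. MMP24 was then called higher under miR-100-3p as well (0.34, adjusted p = 0.0252). The same covariate called MMP17 lower under miR-485-3p (-0.73, adjusted p = 0.00418) and MMP11 higher under miR-99b-5p (0.84, 0.00168). The MMP16 and MMP24 calls under miR-99b-5p were lost on leaving out most single libraries (kept in 2 and 1 of 8).

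Among the 15 ADAMTS proteases, 4 fell (background 5.25%) and 1 rose (5.6%) under miR-380-3p, and 5 fell (10.6%) and 1 rose (10.5%) under miR-485-3p. Under miR-99b-5p 3 fell (background 8.48%) and 1 rose (8.11%), and under miR-100-3p 1 fell (3.05%) and 1 rose (2.9%). ADAMTS9, which cuts the proteoglycans versican and aggrecan, fell from 66.8, 56.5, 58.6 and 60.8 CPM in control to 37.3, 32.9, 30.8 and 28.5 CPM under miR-380-3p (-0.91 ± 0.12, adjusted p = 5.48e-06). Under miR-485-3p it fell to 40.9, 29.5, 43.6 and 43.2 CPM (-0.62 ± 0.12, adjusted p = 0.000294). ADAMTS5, another aggrecan-cutting enzyme, went the other way under miR-380-3p, from a mean of 4.45 to 7.60 CPM (0.77 ± 0.17, adjusted p = 0.0025). ADAMTS2, which trims the N-terminal propeptide of fibrillar procollagens, was called lower under 4 mimics. It fell from 55.1 CPM to 41.8 CPM under miR-99b-5p (-0.40 ± 0.08, adjusted p = 0.000994), 41.9 CPM under miR-380-3p (-0.40 ± 0.08, adjusted p = 0.00172) and 34.1 CPM under miR-100-3p (-0.69 ± 0.08, adjusted p = 6.4e-06). The call under miR-485-3p (-0.26 ± 0.08, adjusted p = 0.0245) ended on leaving out control replicate 1 (0.0519), control replicate 2 (0.0786) or replicate 3 of the mimic (0.0838).

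ADAMTS19 rose under miR-100-3p from 12.2, 11.1, 12.0 and 12.7 CPM to 21.4, 23.8, 27.4 and 22.8 CPM (0.99 ± 0.11, adjusted p = 1.46e-06), with no overlap. ADAMTS13, the protease of von Willebrand factor, fell under miR-485-3p from 11.7 to 6.66 CPM (-0.83 ± 0.20, adjusted p = 0.00326). ADAMTS7 fell there from 21.4 to 11.8 CPM (-0.87 ± 0.24, adjusted p = 0.0097), but it has near-identical pseudogene copies, between which the authors' counting may have split reads. ADAMTS14, a procollagen-trimming relative of ADAMTS2, was near the lower end of what was counted, at 1.74, 0.989, 1.36 and 0.592 CPM in control. It was called lower under miR-99b-5p at 0.543, 0.264, 0.666 and 0.492 CPM (-1.26 ± 0.38, adjusted p = 0.0232) and under miR-485-3p at 0.651, 0.456, 0.291 and 0.461 CPM (-1.32 ± 0.39, adjusted p = 0.0174), and both groups overlapped control replicate 5. The first call ended without control replicate 1 (0.109), control replicate 4 (0.0653) or miR-99b-5p replicate 3 (0.0994), and the second without control replicate 1 (0.088) or miR-485-3p replicate 3 (0.0706).

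Of the 3 inhibitors, 1 rose under miR-380-3p (background 5.6%). TIMP3, which binds to the matrix, rose under miR-380-3p from 2.24, 2.89, 3.01 and 2.76 CPM to 4.14, 4.01, 4.67 and 4.95 CPM (0.71 ± 0.17, adjusted p = 0.00663). TIMP1 stood at 19.1, 17.7, 18.5 and 15.7 CPM in control and at 17.4, 21.1, 23.1 and 18.0 CPM under miR-99b-5p, and all mimic groups overlapped the control. It was called under no mimic, with log2 changes from -0.08 to 0.22. With the GC slope as covariate it was called higher under miR-99b-5p (0.32, adjusted p = 0.0486). TIMP2, the inhibitor that also takes part in the activation of MMP2, stood at 152, 143, 145 and 120 CPM in control and at 145, 151, 156 and 120 CPM under miR-485-3p (0.03 ± 0.09, adjusted p = 0.834). Its call under miR-99b-5p was small (0.24 ± 0.08, adjusted p = 0.0475). It ended on leaving out control replicate 2, 4 or 5, or replicate 3 or 4 of the mimic, with adjusted p from 0.0672 to 0.191.

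The 4 mimics with calls against control were also compared directly, in 6 pairs. The share of members called lay above the background in each pair, and close to it in both comparisons of miR-485-3p with miR-99b-5p and miR-380-3p. Adjusted p-values were taken over all genes within each of 15 pairs. Between miR-99b-5p and miR-380-3p 30 members differed (background 24.0%), of which 14 were higher under miR-99b-5p. Between miR-99b-5p and miR-485-3p 28 differed (background 33.5%), with 20 higher under miR-99b-5p, and between miR-99b-5p and miR-100-3p 26 differed (background 23.4%), with 15 higher under miR-99b-5p. Between miR-380-3p and miR-485-3p 24 differed (background 29.0%), 17 of them higher under miR-380-3p. Between miR-380-3p and miR-100-3p 28 differed (background 17.4%), and between miR-485-3p and miR-100-3p 35 did (background 28.5%), with 22 of these 35 lower under miR-485-3p. As shares of the 74 members these counts are 40.5%, 37.8%, 35.1%, 32.4%, 37.8% and 47.3% in the same order. Single genes are compared in the paragraphs above.

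Seed matches were sought in the longest 3′ UTR of every gene, taken from any of its annotated protein-coding transcripts. The heptamer is TACGGGT for miR-99b-5p, ATTACAT for miR-380-3p, TGTATGA for miR-485-3p and CAAGCTT for miR-100-3p, read on the mRNA strand. Members held few matches for miR-99b-5p: only LAMA5 had 1 (1.35% of members, against 1.26% of all genes with a UTR), and it was not called (-0.40 ± 0.26, adjusted p = 0.322). None of the 11 members that fell under miR-99b-5p, CD44, COL6A6 and COL1A1 among them, had the heptamer. Over all genes, 40.5% of those with a match fell under this mimic, against 8.87% of those without.

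Under miR-100-3p 6 members had a match, of which 3 fell and 2 rose. Those that fell were ITGB1 and ITGA11, at the sites printed above, and ITGB8, which has 2 matches. Those that rose were TNR, with 2 matches, and FREM1. ITGB8 stood at 2.15, 1.60, 1.23 and 1.35 CPM, all below the controls. Its call (-0.96 ± 0.28, adjusted p = 0.0366) was lost on leaving out any library but miR-100-3p replicate 1 (adjusted p from 0.0587 to 0.118), and that of FREM1 on leaving out the libraries given with it (0.0545 to 0.106). Of all genes with this match 9.44% fell, against 2.74% without.

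Under miR-380-3p 15 members had a match and 3 of them fell (20.0%, against 14.6% of all genes with a match and 4.13% without). They were ITGA11 with 2 matches, ADAMTS17 (-0.48 ± 0.10, adjusted p = 0.0014) with 1, and ADAMTS3 with 3. ADAMTS3, which trims procollagen II, had the weakest of these calls (-0.41 ± 0.13, adjusted p = 0.0453). It ended on leaving out control replicate 1, 2 or 5, or replicate 2, 3 or 4 of the mimic (adjusted p from 0.0962 to 0.144). COL4A2 and ADAMTS5 held a match and rose. The match of COL4A2, at chr13:110359197-110359203 on the plus strand, lies far before the annotated gene end at 110513209. The longest UTR used for this gene is thus not at the 3′ end of its full span, and its match may be absent from the full-length mRNA. ITGB5, with the largest fall under miR-380-3p, had neither the heptamer nor the hexamer TTACAT in its UTR of 1675 bases. With the hexamer as the criterion, 5 of 30 members with a match fell (16.7%, against 8.85% of all genes with it) and 5 rose. With all annotated UTRs of a gene merged, 19 members had the heptamer, of which 4 fell, now with ADAMTS9 among them, and 4 rose.

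Under miR-485-3p 9 members had a match and 1, ADAMTS2, fell (11.1%, against 28.0% of all genes with a match and 8.21% without). The other 15 members that fell had no heptamer in the longest UTR. MMP2 was among them; its UTR of 1249 bases held 1 hexamer (GTATGA) and no heptamer. With the hexamer as the criterion, 2 of 14 members with a match fell (14.3%), against 22.7% of all genes with it and 23.3% of members without it. A missing match says only that these letters are not in this UTR. Members' UTRs were of ordinary length, with a median of 1469 bases against 1442 over all genes.

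Genes that work with the members were followed in lists. Their counts stand against the shares of all genes that rose and fell: 8.11% and 8.48% under miR-99b-5p, 5.6% and 5.25% under miR-380-3p, 10.5% and 10.6% under miR-485-3p, and 2.9% and 3.05% under miR-100-3p. Of 11 tested basement membrane partners, 5 rose (background 5.6%) and 0 fell under miR-380-3p (median log2 change 0.216, all genes -0.003), the mimic under which COL4A1 and COL4A2 rose. They included PXDN, the peroxidase that cross-links type IV collagen (0.43 ± 0.08, adjusted p = 0.000325), SMOC1 (0.72 ± 0.14, adjusted p = 0.000712) and EGFLAM, a dystroglycan ligand (0.80 ± 0.16, adjusted p = 0.00108). Under miR-485-3p 1 rose and 3 fell (median -0.242, all genes 0.025), with PXDN (-0.33 ± 0.08, adjusted p = 0.00298) and EGFLAM (-0.65 ± 0.17, adjusted p = 0.00735) lower. Under miR-99b-5p 1 rose and 0 fell, and under miR-100-3p 2 rose and 0 fell.

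Of 20 proteoglycan and hyaluronan genes, 8 fell under miR-485-3p (background 10.6%), 0 rose and 12 did not pass the test (median -0.207, all genes 0.025). Biglycan (BGN) fell from 14.5 to 6.89 CPM (-1.09 ± 0.18, adjusted p = 6.54e-05), the glypican GPC3 from 2.42 to 1.01 CPM (-1.24 ± 0.24, adjusted p = 0.000406) and the hyaluronan receptor HMMR from 33.5 to 21.7 CPM (-0.63 ± 0.12, adjusted p = 0.000509). HMMR is also a gene of dividing cells. Under miR-380-3p 4 rose and 2 fell; the hyaluronan synthase HAS2 rose from 0.395 to 1.36 CPM (1.76 ± 0.33, adjusted p = 0.000601). Under miR-99b-5p 2 rose and 2 fell, with the syndecan SDC4 at -1.11 ± 0.18 (adjusted p = 5.24e-05), and under miR-100-3p 2 rose and 0 fell.

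Of 21 collagen maturation genes, miR-99b-5p had 2 higher and 2 lower, miR-380-3p 0 and 2, miR-485-3p 5 and 2, and miR-100-3p 0 and 1. PCOLCE, which speeds the trimming of procollagen, fell under miR-99b-5p from 99.2 to 43.6 CPM (-1.18 ± 0.18, adjusted p = 3.33e-05). The cross-linking enzyme LOX fell under miR-380-3p from 4.32 to 2.22 CPM (-0.97 ± 0.20, adjusted p = 0.0016). The collagen galactosyltransferase COLGALT1 rose under miR-485-3p from 86.7 to 128 CPM (0.56 ± 0.08, adjusted p = 1.28e-05).

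Of 18 other matrix glycoproteins, 3 were higher and 1 lower under miR-99b-5p, 1 and 2 under miR-380-3p, 1 and 1 under miR-485-3p, and 1 and 2 under miR-100-3p. MFAP4, a microfibril protein, rose under miR-99b-5p (1.25 ± 0.24, adjusted p = 0.000506), and fibulin-2 (FBLN2) fell there (-0.96 ± 0.19, adjusted p = 0.000607). Of 27 genes of the integrin adhesion machinery, 3 were higher and 4 lower under miR-99b-5p, 2 and 4 under miR-380-3p, 4 and 4 under miR-485-3p, 3 and 0 under miR-100-3p and 0 and 1 under miR-1915-3p. Vinculin (VCL), which links integrin adhesions to actin, fell under miR-485-3p from 71.2 to 36.0 CPM (-0.98 ± 0.08, adjusted p = 1.01e-09). The scaffold NEDD9 fell under miR-380-3p (-1.18 ± 0.18, adjusted p = 3.68e-05) and rose under miR-100-3p (0.61 ± 0.16, adjusted p = 0.0241).

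Of 20 other surface proteases and inhibitors, miR-99b-5p had 4 higher and 1 lower, miR-380-3p 6 and 1, miR-485-3p 4 and 2, and miR-100-3p 3 and 1. ADAM12, a membrane protease of the ADAM family, rose under miR-99b-5p from 27.1 to 54.1 CPM (1.00 ± 0.08, adjusted p = 7.65e-10). Its relative ADAM19 fell there (-0.81 ± 0.11, adjusted p = 5.13e-06) and rose under miR-485-3p (1.00 ± 0.10, adjusted p = 6.35e-08). RECK, a membrane inhibitor of MMPs, rose under miR-380-3p from 6.47 to 9.24 CPM (0.51 ± 0.12, adjusted p = 0.00491). None of these lists had a call under miR-1283, nor, beside the 1 adhesion gene, under miR-1915-3p.

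Markers of mesenchymal neuroblastoma cells and of other cell types moved with some mimics. Among 8 tested mesenchymal genes miR-380-3p had 2 higher and 2 lower; vimentin (VIM) rose from 47.6 to 138 CPM and NOTCH2 fell there. With miR-485-3p 0 rose and 5 fell, with miR-100-3p 0 and 4, and with miR-99b-5p 2 and 1. The shares of all genes that rose and fell under each mimic are those given with the lists above. The summed level of the 10 listed genes was 161 to 197 CPM in control, 240 to 307 under miR-380-3p, 107 to 150 under miR-485-3p, 196 to 213 under miR-99b-5p and 148 to 221 under miR-100-3p. WWTR1, on the same list, had no count in any control library. Of the 9 adrenergic identity genes, 4 fell and 0 rose with miR-99b-5p and with miR-485-3p, 4 fell and 1 rose with miR-380-3p, and 3 fell and 1 rose with miR-100-3p. The 5 endothelial markers summed to 2.79 to 3.27 CPM in control, 0.882 to 1.47 under miR-99b-5p, 0.913 to 1.92 under miR-485-3p, 2.24 to 3.04 under miR-380-3p and 3.79 to 5.14 under miR-100-3p. Most of this sum was VWF alone, at a mean of 2.6 CPM in control, 0.951 under miR-99b-5p, 1.09 under miR-485-3p and 3.11 under miR-100-3p. KDR stood at 0.343 CPM in control and 1.15 under miR-100-3p. The 4 fibroblast markers summed to 70.6 to 78.8 CPM in control and 51.4 to 58.8 under miR-380-3p, nearly all of it PDGFRB. The 2 tested went opposite ways there. PDGFRB fell from 73.3 to 53.9 CPM (-0.44 ± 0.10, adjusted p = 0.0032) and PDGFRA rose from 1.02 to 2.18 CPM (1.11 ± 0.31, adjusted p = 0.0205). The part of these markers in the changes of the members was not tested.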

How the data were processed

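Members and gene lists were chosen with earlier results of these data known. Per the labels, RNA was extracted from cell pellets and sequenced with a stranded mRNA kit. Per the submitters' processing notes the authors aligned reads to hg19 with STAR; versions, counting tool, annotation and use of strand are not given in the sources used here. The values are expected counts, estimated per gene by the authors, with gene lengths beside them; 10.2% of values are not whole, and 0 columns lacked a sample.

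Expected counts were rounded. Genes passing filterByExpr (15058) were fitted over all 28 libraries with edgeR 4.0.16 (TMM factors 0.948 to 1.033, 21 residual degrees of freedom, coefficient of variation 12.2%) and the two-sided quasi-likelihood test. Within each comparison, Benjamini-Hochberg adjustment ran over all genes. CPM use effective library sizes; SE are those of log2 changes. The spread between libraries sets the precision, and no counting intervals were used. The fit was tested on simulated data.

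Values of the single control libraries and of those of at least 1 mimic are given for FN1, CD44, FREM1, ITGB1, COL4A1, COL4A2, COL1A1, the TIMPs and the 3 largest called rises and falls per mimic with at least 1 CPM; list genes named are the up to 3 with the smallest adjusted p. Seed matches are heptamers in GENCODE v29 UTRs of at least 50 bases; printed coordinates are on this build, GRCh38, and not on the hg19 used for alignment. TNC was not analysed here. Alternatives were RLE scaling, library totals, DESeq2 1.42.0, no filter, mean CPM of at least 1, only the 8 libraries compared, a replicate block, the GC slope of each library as a covariate, leaving out each library, the hexamer (positions 2 to 7) and merged UTRs.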

Additional observations from a re-analysis of the deposited data

Results flagged for a closer look

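In 175 groups of 4 libraries, formed by 25 genes and 7 groups, the highest or lowest library of 12 stood apart from the rest by a gap above Dixon's 95% critical value, which chance alone passes in about 1 of 20 groups. In the collagens, COL11A1 was 11.4 CPM in miR-99b-5p replicate 7 (others 8.60 to 8.79), COL16A1 was 0.349 CPM in miR-485-3p replicate 3 (others 0.768 to 0.821) and 2.52 CPM in miR-100-3p replicate 4 (others 1.93 to 2.03). COL4A2 was low at 115 CPM in miR-99b-5p replicate 2 (others 137 to 140) and at 132 CPM in miR-380-3p replicate 4 (others 159 to 163), and COL5A1 was 4.67 CPM in miR-100-3p replicate 3 (others 5.30 to 5.37). ITGB1 was 281 CPM in miR-99b-5p replicate 2 (others 236 to 242) and 210 CPM in miR-1283 replicate 4 (others 254 to 258). MMP24 was 46.8 CPM in control replicate 1 (others 53.7 to 53.9) and 50.4 CPM in miR-380-3p replicate 4 (others 73.2 to 76.6). TIMP3 was 2.30 CPM in miR-485-3p replicate 5 (others 2.86 to 2.92), and TNR was 7.36 CPM in miR-380-3p replicate 2 (others 10.1 to 10.5).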

How the results depend on the processing

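Of the 83 calls of a member under a mimic, 53 stayed called on leaving out each library in turn and under every other alternative run, and none reversed. Another 39 pairs of member and mimic, not called, were called under at least 1 alternative, 34 of them with the GC slope as covariate (13 under miR-485-3p, 9 under miR-380-3p, 8 under miR-99b-5p and 4 under miR-100-3p). Calls lost were 2 with DESeq2, 1 with the GC slope as covariate, 3 with RLE scaling, 7 with library totals, 3 with a mean CPM of at least 1, 12 with no filter on low counts and 10 with only the 8 libraries compared. The count of members called moved by over 1.5 times under miR-485-3p with the GC slope as covariate (38 against 25) and under miR-99b-5p on leaving out 1 library (17 to 24 against 26). With the hexamer, members with a seed match that fell numbered 5 under miR-380-3p (3 with the heptamer) and 2 under miR-485-3p (1 with the heptamer). The cause of these moves was not tested.

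Replicate numbers gave no clear pairing of the libraries. The correlation of deviations from the group mean over 67 same-numbered pairs ran from -0.338 to 0.546 (median 0.053), with 27 over 0.1. Over 269 differently numbered pairs it ran from -0.463 to 0.550 (median -0.0089), with 60 over 0.1. Same-numbered pairs thus lay somewhat higher at the median, and 8 of 28 libraries correlated best with one of their own number. With the replicate block 5 of the 83 calls were lost, and the members called numbered 32 under miR-485-3p (25 without it), 25 under miR-99b-5p (26), 19 under miR-380-3p (19) and 14 under miR-100-3p (13). Some values not called changed sign under an alternative, and not all are listed here. COL6A1 under miR-99b-5p, for example, was 0.07, against 0.29 with the GC slope as covariate and -0.169 with the replicate block. On leaving out 1 library it ran from -0.127 to 0.216. ITGA11 under miR-99b-5p was -0.28, against 0.002 with the replicate block.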
